A study of Mus musculus with 16 samples.

Results

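Thymic dendritic cells and thymic macrophages, both FACS-sorted from wild-type mice, were compared on 4 of the 16 oligonucleotide arrays of a study of gene expression in the mouse thymus. The members are the 2 arrays titled as thymic dendritic cells (WT-tDC) and the 2 titled as thymic macrophages (WT-tMPh), which carry the sample numbers 1 and 2 in each group. The other 12 arrays measured thymic epithelial cells in 6 groups of 2. They were wild-type medullary (mTEC) and cortical (cTEC) epithelial cells, and medullary cells sorted by high (CD80hi) or low (CD80lo) surface CD80, from wild-type mice and from mice lacking Aire. The labels name neither the surface markers used for the dendritic cell and macrophage sorts, nor the strain or age of the mice, nor whether samples 1 and 2 came from separate animals. The p-values therefore measure the spread between samples of a group, which may be technical. It was pooled over all 16 arrays, 12 of them epithelial, and the 2 arrays a group limit the precision.

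Dendritic cells and macrophages are the main phagocytes and antigen-presenting cells of haematopoietic origin in the thymus. Dendritic cells lie mostly in the medulla and at its border with the cortex, present self peptides on MHC molecules to developing T cells, and take part in negative selection and in the generation of regulatory T cells. Macrophages lie in the cortex and medulla and clear the thymocytes that die during selection, which they engulf through bridging proteins and receptors and digest in lysosomes. Both types share a large part of the myeloid programme, so the comparison asks which genes separate the cell that presents from the cell that clears.

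The signals are the deposited linear intensities. Differences are of log2(signal + 4.8), dendritic cells minus macrophages, with the fit's standard error given as ±, and the added constant understates the change of dim genes. A positive difference means a higher signal in dendritic cells. Tests were limma's, on all 16 arrays, with Benjamini-Hochberg adjustment over 9319 probe sets, and "higher" as a call means an adjusted p under 0.05. Each gene is given by the tested probe set with the highest mean log2 value over all 16 arrays. The probe sets of 14 called genes named below carry a suffix of probes that related transcripts may share, namely those of Anxa1, Blnk, Cd22, Cd68, Fcgr1, Flt3, Gadd45b, H2-DMb1, Krt17, Lsp1, Mgp, Pou2f2, Pparg and St3gal5.

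Marker genes followed the labels of both groups, but they and the lists below were chosen with earlier results of these data known. Their counts are descriptions. Of 8 dendritic cell markers 5 were higher in dendritic cells and 3 did not pass, and all 9 macrophage markers were higher in macrophages. Itgax, the integrin chain CD11c and the classical surface marker of dendritic cells, gave signals of 1188 and 1296 on the dendritic cell arrays and 186 and 277 on the macrophage arrays. C1qb, a chain of complement C1q that tissue macrophages secrete, gave 285 and 265 on the dendritic cell arrays and 2243 and 4022 on the macrophage arrays. Neither gene overlapped between the groups, where 42.4% of all tested genes did not overlap. The difference was 2.42 ± 0.36 for Itgax (adjusted p = 0.00049) and -3.43 ± 0.75 for C1qb (adjusted p = 0.00864). Without macrophage array 2, C1qb no longer passed (adjusted p = 0.0605), and a second, dimmer C1qb probe set did not pass either (-0.78 ± 0.39, adjusted p = 0.295).

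Macrophage array 1 stood apart by transcripts of other thymic cells. Krt8, a keratin of simple epithelia, read 1213 on that array, 172 on macrophage array 2 and 59.8 and 22.0 on the dendritic cell arrays. The summed signal of 20 thymic epithelium genes was 5676 on macrophage array 1 and 1388 on macrophage array 2, against 781 and 1697 on the dendritic cell arrays. The sum over 24 thymocyte genes was 11175 and 4220 on the macrophage arrays and 3946 and 3863 on the dendritic cell arrays. In bulk RNA, fewer cells of a type and less RNA per cell cannot be told apart. Of the 440 genes higher in macrophages, 289 kept the call without macrophage array 1. In 188 of the 440, the mean signal in cTEC or mTEC was above the macrophage mean, and 90 of these kept the call. Among the other 252, 199 kept it. Results that rest on this array are given below with and without it.

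**Figure D1:**
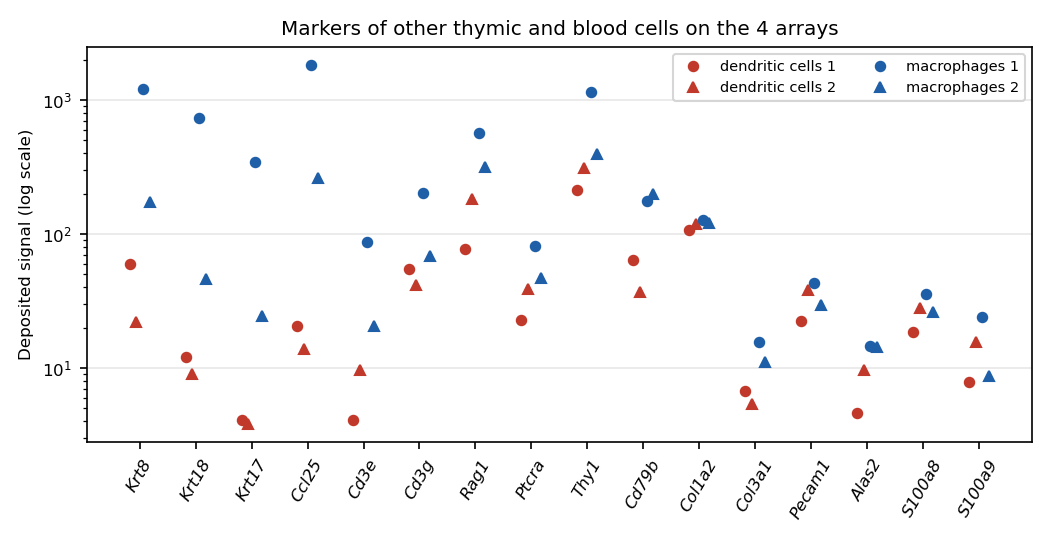
Deposited signal (log scale) of markers of thymic epithelium (Krt8, Krt18, Krt17, Ccl25), thymocytes (Cd3e, Cd3g, Rag1, Ptcra, Thy1), B cells (Cd79b), fibroblasts (Col1a2, Col3a1), endothelium (Pecam1), erythroid cells (Alas2) and granulocytes (S100a8, S100a9) on the 4 arrays. The first macrophage array (blue circles) lies above the second (blue triangles) for the keratins, Ccl25 and the thymocyte genes, with Krt8 at 1213 against 172.

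Over the whole array, 338 probe sets were higher in dendritic cells (3.63% of 9319) and 524 were higher in macrophages (5.62%), 9.25% in all. Counted by gene, 280 of 6922 genes were higher in dendritic cells (4.05%) and 440 in macrophages (6.36%), 10.4% in all. The counts of the gene lists below are to be read beside these shares. Differences of more than 2 on the log2 scale were found for 141 of the 280 genes and 221 of the 440. Every called probe set differed in the same direction between the arrays numbered 1 and between those numbered 2, and none of the 862 overlapped between groups, where 42.3% of all tested probe sets (42.4% of genes) did not overlap. The median difference over all tested genes was -0.09. With the spread taken from only the 4 arrays, 76 and 104 probe sets passed, and 65 of the 125 called genes that are named kept the call.

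**Figure D2:**
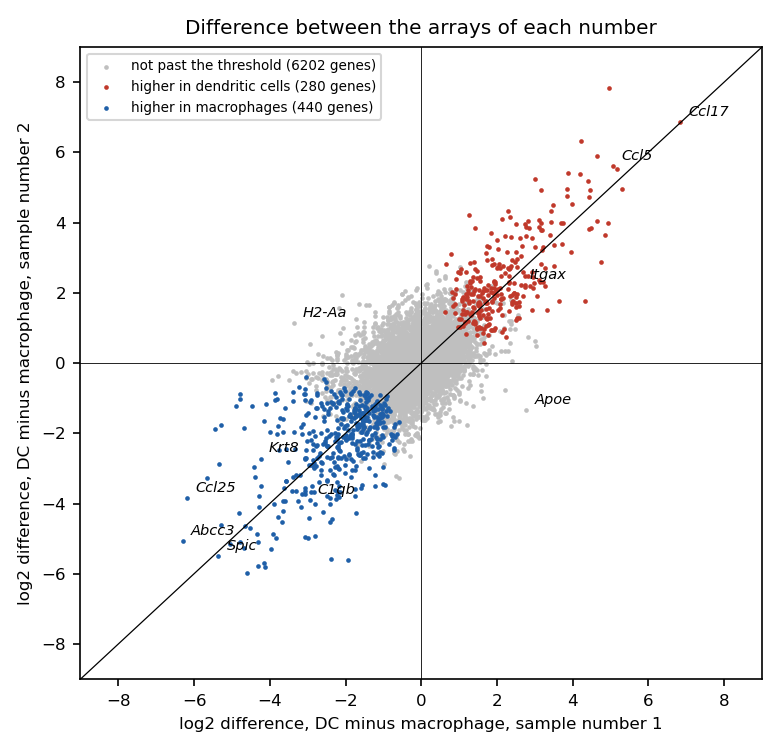
Difference of log2(signal + 4.8) between dendritic cells and macrophages for 6922 genes, from the arrays numbered 1 (x axis) and the arrays numbered 2 (y axis), with the line of equal values. The 280 genes higher in dendritic cells (red) and the 440 higher in macrophages (blue) have the same sign on both axes, while H2-Aa and Apoe, which did not pass, have opposite signs.

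The 12 genes with the largest differences towards dendritic cells included 3 chemokines, secreted proteins that draw T cells and other leukocytes. Ccl17, a ligand of the receptor CCR4, gave 991 and 870.0 on the dendritic cell arrays and 3.9 and 2.8 on the macrophage arrays, a difference of 6.84 ± 0.51 (adjusted p = 2.76e-06). Ccl22, the other ligand of CCR4, gave 1094 and 3222 against 69.6 and 70.5, a difference of 4.65 ± 0.70 (adjusted p = 0.000606). The starts of these genes lie 64.8 kb apart on mouse chromosome 8 (GRCm38.p6). Ccl5, a chemokine that draws T cells, read 2227 and 2312 in dendritic cells and 61.5 and 42.7 in macrophages (5.34 ± 0.82, adjusted p = 0.000668). All 3 separated the groups without overlap, as every called gene did, and the Ccl22 signal varied most between the dendritic cell arrays.

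The other leading genes held a protease, an integrin chain, signalling proteins and a growth factor receptor. Napsa, the aspartic protease napsin A, and Tm4sf5, a tetraspan membrane protein, differed by 6.40 and 5.34. Itgae, the CD103 integrin chain that marks cross-presenting dendritic cells in several tissues, gave 441 and 418 in dendritic cells and 12.9 and 2.3 in macrophages (5.27 ± 0.50, adjusted p = 1.62e-05). Flt3, the receptor of the cytokine that drives dendritic cell development, gave 1427 and 1294 against 60.6 and 37.4 (4.70 ± 0.48, adjusted p = 2.49e-05). Only 1 of the 2 tested Flt3 probe sets was called. Traf1, an adaptor of TNF receptor signalling, St3gal5, which makes the ganglioside GM3, Glipr2, Mycl, a Myc family transcription factor, and Serpinb9, an inhibitor of granzyme B, differed by 5.27, 5.14, 4.79, 4.78 and 4.58.

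**Figure D3:**
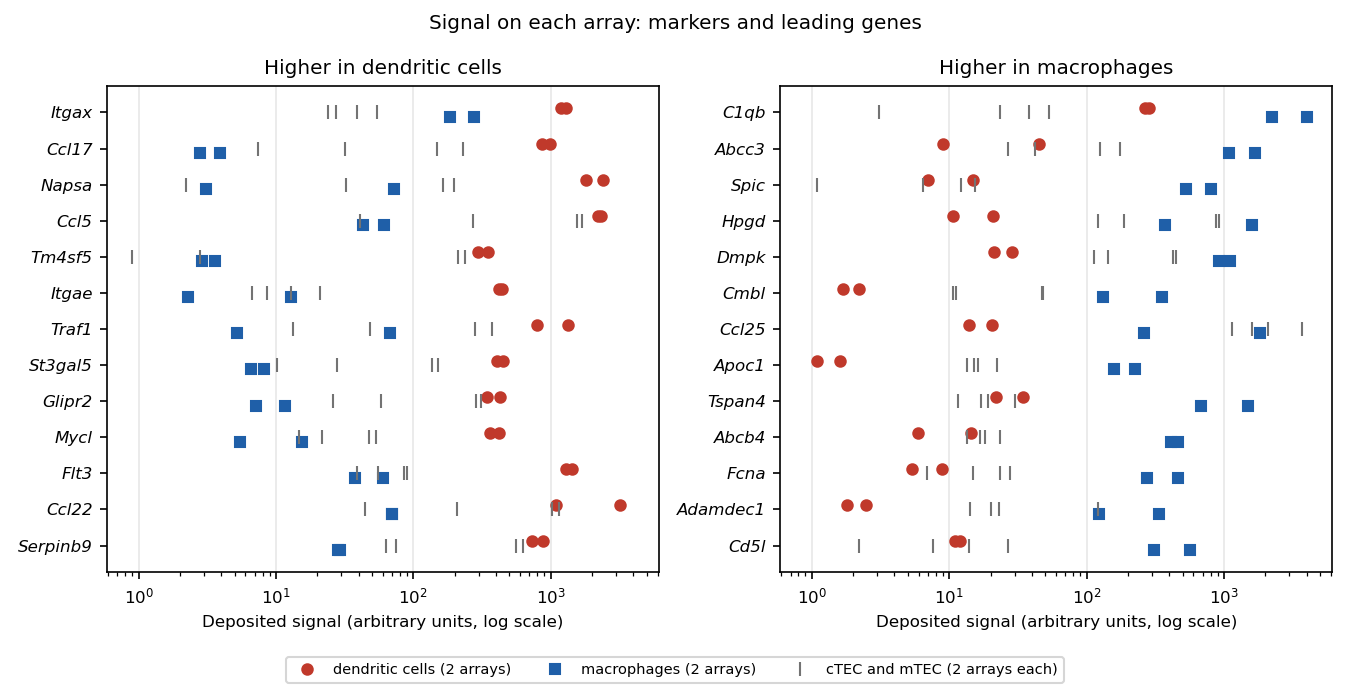
Deposited signal in arbitrary units on each array (log scale) of Itgax and the 12 genes with the largest called differences towards dendritic cells (left), and of C1qb and the 12 towards macrophages (right); grey ticks are the cTEC and mTEC arrays. As for every called gene, dendritic cells (red) and macrophages (blue) do not overlap for any of them. For Ccl25 the epithelial ticks lie at or above most macrophage points.

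Of 20 genes of dendritic cell identity tested, 11 were higher in dendritic cells, 2 were higher in macrophages and 7 did not pass, with a median difference of 1.90 against -0.09 over all genes. The 11 were 8 without dendritic cell array 1. Ccr7, the receptor that guides maturing dendritic cells towards the medulla and to lymph nodes, gave 307 and 218 in dendritic cells and 9.2 and 10.6 in macrophages (4.17 ± 0.43). Irf4, a transcription factor of conventional dendritic cells, gave 622 and 391 against 53.4 and 19.5 (3.73 ± 0.41). Fscn1, the actin-bundling protein fascin of mature dendritic cells, gave 1383 and 1669.6 against 189 and 112 (3.34 ± 0.45). Xcr1, the chemokine receptor of the cross-presenting lineage, was dimmer at 134 and 142 against 31.0 and 25.9 (2.11 ± 0.43). Batf3 and Zbtb46, lineage transcription factors named here after their values were seen, differed by 2.22 ± 0.49 and 2.5 ± 0.58. Batf3 lost its call without dendritic cell array 1 (adjusted p = 0.0857) and Zbtb46 without dendritic cell array 2 (adjusted p = 0.151) or macrophage array 1 (0.122).

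Several genes often used to mark dendritic cells did not pass the test. Irf8, the factor of the cross-presenting lineage, gave 2157 and 2910.0 in dendritic cells and 1056 and 1243 in macrophages, with no overlap (1.13 ± 0.39, adjusted p = 0.102). It passed with the sample number as a block over the 8 arrays not sorted by CD80. Cd83, a maturation marker, gave 2137 and 1575 against 1353 and 1009, also with no overlap (0.65 ± 0.35, adjusted p = 0.338). Ly75, the endocytic receptor DEC-205, gave 154 and 754 against 257 and 222, so its 2 dendritic cell arrays lay on either side of the macrophages. Sirpa, which marks 1 lineage of thymic dendritic cells and is also carried by macrophages, was higher in macrophages, at 1013 and 1209 against 158 and 141 (-2.85 ± 0.31). Of 3 tested Sirpa probe sets, 2 were called. The other list member higher in macrophages was Cd4, at 167 and 187 against 43.5 and 42.8 (-1.92 ± 0.35).

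The plasmacytoid dendritic cell list had a median difference of -0.15, from -0.22 to 0.16 with an array left out (0.16 without macrophage array 1) and 0.09 under a stricter filter, and 2 of its 10 tested genes were higher in dendritic cells. They were the transcription factors Spib (206 and 128 against 28.5 and 8.3, a difference of 3.0 with a standard error of 0.54) and Irf7 (372 and 326 against 89.4 and 82.1, 1.96 ± 0.33). For each, only 1 of 2 tested probe sets was called. Tcf4, the factor that specifies this lineage, read 68.2 and 109 in dendritic cells and 77.7 and 165 in macrophages, which overlap. Tlr7, an endosomal RNA sensor, was higher in macrophages, at 36.6 and 41.8 against 1.7 and 3.1, and a second member was without macrophage array 2.

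The list of dendritic cell maturation and migration held the most genes called towards dendritic cells by count. Its share of 52.8% was below the 55.0% of dendritic cell identity. Of 36 genes tested, 19 were higher in dendritic cells and 0 in macrophages by limma (24 and 0 at an unadjusted p under 0.05). The median was 1.52, and 1.18 to 1.65 with an array left out. With the spread taken from only the 4 arrays, 9 were higher in dendritic cells. Cd40, the receptor through which T cells activate dendritic cells, gave 853 and 874 in dendritic cells and 89.9 and 59.2 in macrophages (3.48 ± 0.31, adjusted p = 9.3e-06). Il12b, the p40 chain of interleukin 12, gave 371 and 431 against 29.0 and 14.4 (3.99 ± 0.69, adjusted p = 0.00161). Relb, the NF-kappaB subunit of mature dendritic cells, gave 1233 and 509 against 158 and 80.2 (2.76 ± 0.56), and its call was lost without dendritic cell array 1 (adjusted p = 0.0743). The TNF receptor family member Tnfrsf4 (OX40) differed by 2.98 ± 0.51 and the TNF family ligand Tnfsf9 (4-1BB ligand) by 2.30 ± 0.42. Nfkbia, the inhibitor IkappaB-alpha, did not pass, at 500 and 996 against 448 and 535.

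Genes of MHC class II presentation went both ways. Of 16 tested, 6 were higher in dendritic cells, 2 were higher in macrophages and 8 did not pass, with a median of 1.48. With the sample number as a block over the 8 arrays not sorted by CD80, 10 were higher in dendritic cells. H2-Ab1, the beta chain of I-A, gave 3056 and 3147 in dendritic cells and 759 and 272 in macrophages (2.76 ± 0.39, adjusted p = 0.000341). The peptide-editing chains H2-Ob, H2-Oa and H2-DMb1, which load or restrain the loading of class II molecules, differed by 3.81 ± 0.50, 2.55 ± 0.56 and 2.49 ± 0.44. H2-Oa lost its call without dendritic cell array 1 (adjusted p = 0.0855) and without macrophage array 2 (adjusted p = 0.0596). The 2 members higher in macrophages were endosomal proteases. Ctsl, cathepsin L, which trims the invariant chain in cortical epithelium, gave 1709 and 1115 in macrophages and 112 and 64.7 in dendritic cells (-3.94 ± 0.49). Lgmn, the asparagine endopeptidase legumain, gave 762 and 1095 against 140.3 and 72.7 (-3.11 ± 0.39). Ctss, cathepsin S, the protease that trims the invariant chain in dendritic cells, was bright in both groups at 3066 and 3905 against 2380.4 and 3561 (0.25 ± 0.40).

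H2-Aa, the alpha chain that pairs with H2-Ab1, is singled out here after its values were seen. It gave 166 on dendritic cell array 1 and 3639 on dendritic cell array 2, with 1745 and 1655 in macrophages, and so did not pass (-1.11 with a standard error of 1.0, adjusted p = 0.623). The first array was also the lower one in mTEC, at 1122 against 5358. The 5' Gapdh control probe set was likewise unequal by number, at 636 and 184 on the first and second dendritic cell arrays and 471 and 175 on the macrophage arrays, while its 3' probe set gave 2467, 3223, 1825 and 2733. Alternative fits with the sample number as a block are given at the end. The part of these differences between sample numbers in the results was not tested further.

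The MHC class I list had 26.3% of its tested genes higher in dendritic cells, against 4.05% of all tested genes. Of 19 genes of class I presentation and the proteasome, 5 were higher in dendritic cells, 0 in macrophages by limma (6 and 1 at an unadjusted p under 0.05) and 14 did not pass, with a median of 0.59. The 5 became 1 without dendritic cell array 1, 3 without dendritic cell array 2 and 2 without macrophage array 2. The interferon-inducible proteasome subunit Psmb9 gave 2101 and 1991 against 759 and 368 (1.94 ± 0.34), and the proteasome activator Psme1 gave 2353 and 1640.0 against 541 and 418 (2.04 ± 0.45). The peptide transporter Tap1 (1.70 ± 0.45) and the subunit Psmb8 (1.40 ± 0.40) passed. Without macrophage array 2 the adjusted p was 0.208 for Tap1, 0.27 for Psmb8 and 0.0556 for Psme1. Without dendritic cell array 1 it was 0.2, 0.225 and 0.0857, and Psmb8 was also lost without dendritic cell array 2 (0.0757). The class I heavy chains H2-K1 and H2-D1 were bright on all 4 arrays and did not differ beyond their spread (0.08 ± 0.56 and 0.40 ± 0.44), and their probes may be shared between related class I genes.

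Among 19 genes of costimulation and T cell regulation, 5 were higher in dendritic cells and 2 in macrophages. The 2 were cytokine genes. Il10, which restrains antigen-presenting cells, gave 43.6 and 40.5 in macrophages and 1.7 and 5.1 in dendritic cells (-2.55 ± 0.41), and Il18 gave 319 and 371 against 65.0 and 53.5 (-2.45 ± 0.53). The Il18 call was lost without dendritic cell array 2 (adjusted p = 0.0561).

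Macrophage identity genes ran the opposite way to the dendritic cell lists. Of 23 tested, 14 were higher in macrophages and 0 in dendritic cells by limma (15 and 0 at an unadjusted p under 0.05). The median was -2.26, -2.76 without macrophage array 1 and -1.92 without macrophage array 2. With the spread taken from only the 4 arrays, 7 were higher in macrophages. Spic, the transcription factor of macrophages that handle haem in spleen and bone marrow, gave 802 and 526 in macrophages and 14.9 and 7.0 in dendritic cells (-5.42 ± 0.44, adjusted p = 5.57e-06). Cd5l, a secreted survival factor of tissue macrophages, gave 309 and 566 against 11 and 12 (-4.70 ± 0.46, adjusted p = 1.71e-05). Mrc1, the mannose receptor, gave 209 and 989 against 10.1 and 26.9 (-4.41 ± 0.72). Adgre1, the F4/80 antigen, gave 507 and 1199 against 68.0 and 35.0 (-3.87 ± 0.60). All of these separated the groups without overlap, as every called gene did, and Spic was dim on the cTEC and mTEC arrays as well as in dendritic cells.

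Other macrophage markers also reached clear signal in the dendritic cells. Csf1r, the receptor of the growth factor on which macrophages depend, gave 308 and 374 in dendritic cells and 1163 and 2325 in macrophages (-2.26 ± 0.38, adjusted p = 0.00146). Only 1 of the 2 tested Csf1r probe sets was called, and the mean over both did not pass. Cd68, a lysosomal membrane protein, gave 633 and 304 against 1669.8 and 2436 (-2.19 ± 0.41). Lyz2, lysozyme, was bright in both groups at 903 and 852 against 1296 and 1464 and did not pass (-0.65 ± 0.45, adjusted p = 0.495). Tyrobp, the adaptor DAP12, overlapped between the groups, with 1615 and 901 in dendritic cells and 1083 and 2159 in macrophages.

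The 12 genes with the largest differences towards macrophages were led by Abcc3, an export pump for organic anions. It gave 1084 and 1682 in macrophages and 9.0 and 45.4 in dendritic cells (-5.69 ± 0.50, adjusted p = 9.45e-06). Hpgd, which inactivates prostaglandins, gave 371 and 1598 against 10.6 and 20.7 (-5.29 ± 0.68). Apoc1, an apolipoprotein, gave 158 and 225 against 1.6 and 1.1 (-4.98 ± 0.40). The kinase gene Dmpk (-5.10), the hydrolase Cmbl (-5.04), the tetraspanin Tspan4, the phospholipid exporter Abcb4, the lectin ficolin A (Fcna) and the protease Adamdec1 completed the leading genes with Spic, Cd5l and Ccl25, the last described with the chemokines. A probe set of Igf1 differed by more than any of these 12. It lies outside the rule for named genes, since another Igf1 probe set had the higher mean log2 value over the 16 arrays (7.03 against 6.64), and its probes may be shared. It gave 763 and 2080.0 in macrophages against 1.7 and 16 (-6.77 ± 0.83). The Igf1 probe set that the rule takes gave 234 and 278 against 106 and 85.1 (-1.38 ± 0.35). Both probe sets were called higher in macrophages and disagreed on the size, and the latter did not pass without dendritic cell array 1 (adjusted p = 0.0573), dendritic cell array 2 (0.123) or macrophage array 2 (0.0953).

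Of 15 genes for the engulfment of dying cells, 8 were higher in macrophages and 1 in dendritic cells, with a median of -2.01. The 8 were 6 without dendritic cell array 1 or macrophage array 2, and 7 without macrophage array 1. Mertk, the receptor tyrosine kinase through which macrophages take up apoptotic thymocytes, gave 135 and 185 in macrophages and 9.2 and 15.8 in dendritic cells (-3.26 ± 0.49). Gas6, a ligand that bridges Mertk to dying cells, gave 869.8 and 110 against 16.7 and 10.8 (-4.11 ± 0.63), and its difference without macrophage array 1 was -2.64. The same gene read 1929 and 2201 in cTEC and 676 and 418 in mTEC. The part of epithelial RNA in its macrophage signal was not tested. Lrp1, a scavenger receptor, gave 688 and 1130.0 against 50.9 and 56.0 (-3.93 ± 0.38). Mfge8, another bridging protein, did not pass, at 641 and 184 in macrophages and 378 and 344 in dendritic cells. The member higher in dendritic cells was Anxa1, annexin A1, at 1128 and 1018 against 136 and 22.2 (4.12 ± 0.57). Annexin A1 is also an anti-inflammatory protein of many leukocytes.

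Complement genes were higher in macrophages where they differed. By limma 7 of 15 tested were higher in macrophages and 0 in dendritic cells (8 and 0 at an unadjusted p under 0.05), with a median of -1.30 that was -0.67 with a larger added constant and -2.31 under a stricter filter. C1qa gave 2144 and 2666 in macrophages and 525 and 301 in dendritic cells (-2.57 ± 0.36), and C1qc gave 1636 and 4176 against 331 and 531 (-2.63 ± 0.44), so all 3 chains of C1q were higher in macrophages. C2, which forms the classical C3 convertase, gave 253 and 407 against 16.4 and 22.5 (-3.76 ± 0.34), and Cfp, properdin, gave 1467 and 1632 against 330 and 124 (-2.90 ± 0.49). Both groups carried the complement receptor chain Itgb2, at 740 and 583 in dendritic cells and 526 and 856 in macrophages (-0.03 ± 0.45).

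Receptors for antibody and microbial products showed a similar direction, with 6 of 19 tested higher in macrophages and 0 in dendritic cells by limma (9 and 0 at an unadjusted p under 0.05). Fcgr1, the high-affinity receptor for IgG, gave 289 and 425 against 25.9 and 23.4 (-3.59 ± 0.35). The lectin Clec4d gave 47.9 and 48.6 in macrophages and 1.6 and 3.5 in dendritic cells (-2.86 ± 0.36). Ly86, which pairs with the receptor RP105, did not differ beyond its spread (-0.34 ± 0.43).

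Lysosomal genes made up the list with the most genes called towards macrophages by count. Their share of 46.3% was below those of macrophage identity (60.9%), engulfment (53.3%) and complement (46.7%). Of 41 hydrolases and lysosomal membrane proteins tested, 19 were higher in macrophages, 1 was higher in dendritic cells and 21 did not pass. The median was -1.14, -1.47 without macrophage array 1 and -0.81 without macrophage array 2. With the spread taken from only the 4 arrays, 7 were higher in macrophages. Besides Ctsl and Lgmn, Ctsf, cathepsin F, gave 293 and 299 in macrophages and 10.5 and 12.9 in dendritic cells (-4.19 ± 0.38). Ctsa, cathepsin A, which protects other hydrolases, gave 1990 and 2865 against 421 and 209 (-2.99 ± 0.39). Lamp1, the abundant lysosomal membrane protein, and Npc2, a cholesterol-binding protein of the lumen, were bright in both groups and did not pass (-0.25 ± 0.38 and 0.42 ± 0.29). The member higher in dendritic cells was Gusb, beta-glucuronidase, at 1443 and 1020.0 against 453 and 679 (1.12 ± 0.32, adjusted p = 0.0438), which did not pass without macrophage array 1 (adjusted p = 0.235), dendritic cell array 1 (0.274) or dendritic cell array 2 (0.0549), nor with the sample number as a block over 8 arrays. Without macrophage array 2, 3 members were higher in dendritic cells.

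Since 19 of these genes were higher in macrophages, the 250 bases upstream of their RefSeq starts (GRCm38.p6, the most upstream start of each gene) were searched on both strands for CACGTG, the core of the element that lysosomal genes are known to share. Promoters were matched for 17 of the 19 lysosomal genes higher in macrophages, and 5 held CACGTG (29.4%). It was present in 4 of 18 lysosomal genes that did not pass (22.2%), in 479 of 5556 promoters of all tested genes (8.6%), in 33 of 353 of genes higher in macrophages (9.3%) and in 14 of 223 of genes higher in dendritic cells (6.3%). The share in the lysosomal list was above that of all promoters both for its called genes and for those that did not pass. The 5 stretches follow, 5' to 3' on the strand of the gene, to show where the pattern lies, with each CACGTG in capitals. Ctsd, Glb1 and Naglu were named for the pattern after their values were seen.
Ctsd (cathepsin D), chr7:142387880-142388077, minus strand: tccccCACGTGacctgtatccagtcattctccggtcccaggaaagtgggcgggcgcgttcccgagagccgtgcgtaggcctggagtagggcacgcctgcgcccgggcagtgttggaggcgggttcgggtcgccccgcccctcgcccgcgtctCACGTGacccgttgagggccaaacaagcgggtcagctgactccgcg
Ctsf (cathepsin F), chr19:4855046-4855131, plus strand: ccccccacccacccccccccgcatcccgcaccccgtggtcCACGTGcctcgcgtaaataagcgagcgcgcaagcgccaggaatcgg
Ctsl (cathepsin L), chr13:64370711-64370770, minus strand: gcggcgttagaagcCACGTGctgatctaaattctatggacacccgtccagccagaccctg
Glb1 (beta-galactosidase), chr9:114400990-114401075, plus strand: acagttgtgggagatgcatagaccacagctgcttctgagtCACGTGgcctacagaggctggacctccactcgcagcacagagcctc
Naglu (N-acetylglucosaminidase), chr11:101069981-101070066, plus strand: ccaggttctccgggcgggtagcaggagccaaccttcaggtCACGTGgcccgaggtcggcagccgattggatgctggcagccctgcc

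Ctsd holds the pattern at 245 and 98 bases upstream of its start, Ctsl at 236, Ctsf at 79, Naglu at 73 and Glb1 at 48. In Ctsd it is followed by AC on the strand shown both times, and the longer form CACGTGAC was found in 3 of the 17 promoters (17.6%) and in 3.4% of all. Ctsd gave 848 and 3175 in macrophages and 431 and 285 in dendritic cells (-2.21 ± 0.56), and did not pass without dendritic cell array 2 (adjusted p = 0.131) or macrophage array 2 (0.195). Glb1 gave 151 and 206 against 53.3 and 49.9 (-1.68 ± 0.29), and from -1.46 to -1.9 with an array left out. A second Glb1 probe set, whose probes related transcripts may share, differed less, from -0.87 to -1.23 with an array left out. Naglu gave 247 and 335 against 115 and 70.8 (-1.62 ± 0.34), and did not pass without dendritic cell array 2 (-1.29) or macrophage array 2 (-1.41).

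In all, 14 patterns were searched. Of the promoters of genes higher in dendritic cells, 4.9% held the AP-1 type TGAGTCA, against 3.5% of all and 3.4% of those of genes higher in macrophages. The PU.1 type GAGGAAGT was in 2.2%, 2.2% and 1.4%, and the ETS type AGAGGAAG in 4.0%, 3.8% and 3.7%. A kappaB type was in 8.5%, 5.9% and 5.7%, and an interferon-response type in 3.6%, 2.8% and 2.8%. The palindromic E-box TCACGTGA was in 0.4%, 1.5% and 2.3%. These shares are descriptions of the letters and no test was made. The search included overlapping patterns, since CACGTG lies within both longer E-box forms.

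Lipid handling genes were higher in macrophages where they differed. Of 30 tested, 12 were higher in macrophages and 0 in dendritic cells by limma (16 and 1 at an unadjusted p under 0.05), with a median of -1.09, and 1 was higher in dendritic cells without macrophage array 2. Besides Apoc1 and Lrp1, the nuclear receptor Nr1h3 (LXR-alpha), which senses oxysterols, gave 458 and 640 against 50.3 and 47.4 (-3.35 ± 0.32). Lpl, lipoprotein lipase, gave 233 and 1272 against 11.1 and 38.9 (-4.39 ± 0.73). Abca1, the cholesterol exporter that Nr1h3 is known to regulate, gave 526 and 1521 against 20.1 and 192 (-3.68 ± 0.78), and its call was lost without dendritic cell array 1 (adjusted p = 0.0779) and without macrophage array 2 (adjusted p = 0.0624). Apoe, the apolipoprotein E gene, did not pass, at 1368 and 1224 in dendritic cells and 196 and 3113 in macrophages, and was called without macrophage array 2.

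Of 17 genes of haem and iron handling, 4 were higher in macrophages and 0 in dendritic cells by limma (7 and 0 at an unadjusted p under 0.05). With Spic these were the haem oxygenase Hmox1, at 960.4 and 1434 against 110 and 118 (-3.31 ± 0.60), the phagosomal metal transporter Slc11a1, at 549 and 962 against 68.7 and 71.0 (-3.29 ± 0.34), and Cp, ceruloplasmin, at 55.1 and 109 against 13.8 and 27.8 (-1.74 ± 0.41). Cp did not pass without dendritic cell array 1 (adjusted p = 0.141) or macrophage array 2 (0.122). The ferritin heavy chain Fth1 was bright in both groups (-0.01 ± 0.31).

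**Figure D4:**
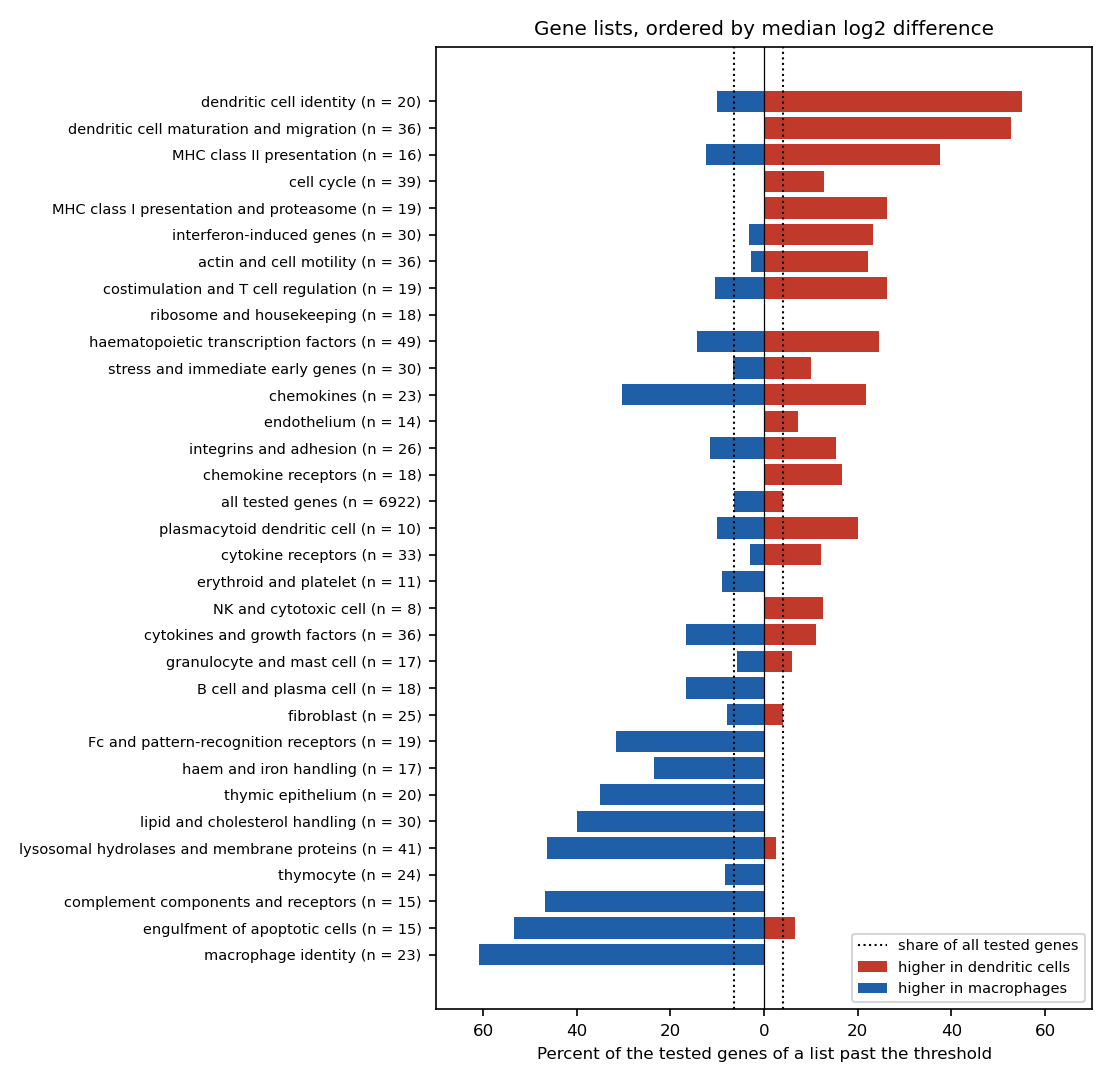
Percent of the tested genes of each list that were higher in dendritic cells (red, to the right) or in macrophages (blue, to the left), with lists ordered by their median difference and the shares of all 6922 tested genes as dotted lines. The dendritic cell identity and maturation lists stand at the top with 11 of 20 and 19 of 36 genes higher in dendritic cells, and macrophage identity at the bottom with 14 of 23 higher in macrophages.

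Chemokine ligands split between the groups. Of 23 tested, 5 were higher in dendritic cells and 7 in macrophages. With Ccl17, Ccl22 and Ccl5, the dendritic cells had more Cxcl9, a ligand of CXCR3, at 276 and 296 against 47.0 and 57.2 (2.36 ± 0.40), and more Ccl9, named after its values were seen (1.96 ± 0.33). The macrophages had more Ccl8, at 242 and 171 against 4.0 and 4.3 (-4.54 ± 0.47), and Ccl12, at 53.1 and 68.6 against 2.2 and 8.3 (-2.77 ± 0.41), both monocyte attractants. Cxcl10, a further ligand of CXCR3, was higher in macrophages at 144 and 55.9 against 24.6 and 21.9, and lost the call without macrophage array 1 (adjusted p = 0.21), dendritic cell array 1 (0.089) or dendritic cell array 2 (0.11).

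A pair of these ligands are known products of the thymic epithelium. Ccl25, which draws thymocyte progenitors, gave 1834 and 263 on the macrophage arrays and 20.4 and 13.9 on the dendritic cell arrays (-5.01 ± 0.70), and -3.63 without macrophage array 1 (adjusted p = 0.00125). Cxcl12, which positions thymocytes in the cortex, gave 366 and 87.6 against 2.6 and 4.8 (-4.46 ± 0.59), and -3.45 without that array (adjusted p = 0.00129). Both were brighter on macrophage array 1, as Krt8 was. The part of epithelial RNA in these values was not tested.

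Chemokine receptors, cytokine receptors and cytokines added smaller sets. Of 18 chemokine receptors, 3 were higher in dendritic cells and 0 in macrophages by limma (6 and 1 at an unadjusted p under 0.05). These were Ccr7, Xcr1 and Ccr2, a receptor of monocyte-derived and some conventional dendritic cells, with 270.1 and 312 against 14.3 and 7.0 (4.30 ± 0.43). Among 33 cytokine receptors 4 were higher in dendritic cells, with Flt3 and the stem cell factor receptor Kit (256 and 339 against 19.5 and 12.1, 3.88 ± 0.35) in the lead, and 7 were with the sample number as a block over 8 arrays. The others, Il15ra (412 and 356 against 172 and 79.9) and Csf2rb2 (418 and 421 against 111 and 217), did not pass without either dendritic cell array. Il15ra also lost the call without macrophage array 2 (adjusted p = 0.137) and Csf2rb2 without macrophage array 1 (0.235). The 1 cytokine receptor higher in macrophages was Csf1r, and a second passed without macrophage array 1 or without dendritic cell array 2. Kitl, the ligand of Kit, was higher in macrophages at 12.1 and 54.7 against 2.5 and 0.5, and lost that call without dendritic cell array 1 (adjusted p = 0.0732), dendritic cell array 2 (0.141) or macrophage array 2 (0.236).

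Of 36 cytokines and growth factors, 4 were higher in dendritic cells, or 2 without dendritic cell array 1. The 6 higher in macrophages were 3 without either dendritic cell array or without macrophage array 2. With Il12b, the dendritic cells had more Tnf, at 240 and 272 against 11 and 26.2 (3.56 ± 0.41, adjusted p = 6.42e-05), Il1b, at 1823 and 679 against 205 and 129 (2.74 ± 0.71), and Il6, at 34.8 and 32.2 against 4.1 and 0.7 (2.45 ± 0.58). Il1a, the other agonist of the interleukin 1 receptor, ran the opposite way, at 333 and 363 in macrophages and 22.3 and 19.4 in dendritic cells (-3.78 ± 0.38, adjusted p = 2.19e-05). Il1b lost its call without dendritic cell array 1 (adjusted p = 0.212) and without macrophage array 2 (0.121). Il6 lost it without dendritic cell array 1 (0.0827), dendritic cell array 2 (0.0654) or macrophage array 2 (0.0961). Tnf and Il1a kept theirs without each array in turn.

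Of 49 transcription factors of blood cells, 12 were higher in dendritic cells and 7 in macrophages, and the 7 became 4 without macrophage array 1 or without either dendritic cell array. Those higher in dendritic cells included Mycl (362 and 421 against 15.4 and 5.5), Irf4, Spib and Relb. Those higher in macrophages included Spic, Nr1h3, the fatty acid-sensing receptor Pparg (47.3 and 112 against 6.1 and 3.2, -3.06 ± 0.53) and the octamer factor Pou2f2 (66.7 and 45.9 against 7.8 and 8.8, -2.20 ± 0.43). Atf3, a stress factor, was bright on all 4 arrays and did not differ beyond its spread (0.24 ± 0.32).

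Of 30 interferon-induced genes tested, 7 were higher in dendritic cells and 1 in macrophages, with a median of 0.59. Usp18, which removes ISG15 from proteins, gave 735 and 819 against 150.1 and 88.0 (2.70 ± 0.29), and the antiviral GTPase Mx1 gave 443 and 304 against 80.2 and 75.8 (2.17 ± 0.37). Irf1 and Irf9, factors of the interferon response, did not pass (0.71 ± 0.34 and 0.74 ± 0.32). The 1 gene higher in macrophages was Cxcl10, described above, and 3 were called without macrophage array 2.

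Of 36 genes of actin and cell motility, 8 were higher in dendritic cells and 1 in macrophages, with a median of 0.54. Without macrophage array 1 the median was 0.32 and 10 were higher in dendritic cells, and without macrophage array 2 the 8 became 4. With Fscn1 and Anxa1, these were led by Anxa3 (893 and 698 against 96.0 and 93.8, 2.99 ± 0.38) and Lsp1, a leukocyte actin-binding protein (1912 and 2068 against 798 and 107, 2.74 ± 0.69). Lsp1 did not pass without macrophage array 2 (adjusted p = 0.187), dendritic cell array 1 (0.0855) or dendritic cell array 2 (0.0945). Myo1e, a myosin, was higher in macrophages at a low level, 16.1 and 14.9 against 0.8 and 2.1, and lost the call without any 1 of the 4 arrays (adjusted p from 0.0617 to 0.13). Among 26 integrins and adhesion molecules, 4 were higher in dendritic cells and 3 in macrophages. Itgb7, the partner chain of Itgae, gave 1231 and 733 against 158 and 57.9 (3.24 ± 0.41), and the tetraspanin Cd9 gave 544 and 293 against 54.6 and 55.1 (2.76 ± 0.35). Vcam1 gave 2096 and 3893 in macrophages and 180.1 and 551 in dendritic cells (-3.16 ± 0.56), and Itgb5 gave 796 and 1049 against 176 and 180 (-2.33 ± 0.46). The third, the tetraspanin Cd81, gave 622 and 1735 against 396 and 423 (-1.33 ± 0.38, adjusted p = 0.0425). It did not pass without dendritic cell array 1 (adjusted p = 0.167), dendritic cell array 2 (0.12) or macrophage array 2 (0.342).

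Cell cycle genes had a median of 0.79, and 5 of 39 tested were higher in dendritic cells, with 0 higher in macrophages by limma (12 and 0 at an unadjusted p under 0.05). Ccnd1, cyclin D1, gave 629 and 1102 against 50.9 and 103 (3.43 ± 0.42). The other called members that the rule names, Cdkn1a (2.12 ± 0.55), a cyclin-dependent kinase inhibitor, the mitotic kinase Aurka (1.51 ± 0.38) and Cks1b (1.5 ± 0.41), lost the call without dendritic cell array 1 (adjusted p = 0.194, 0.168 and 0.111) and without macrophage array 2 (0.188, 0.201 and 0.196), and Cks1b also without dendritic cell array 2 (0.137). The 5 became 2 without dendritic cell array 1, 3 without dendritic cell array 2 and 1 without macrophage array 2. Of 18 ribosome and housekeeping genes, limma called 0 in either direction (2 higher in dendritic cells at an unadjusted p under 0.05), with a median of 0.40 that was 0.22 after quantile normalisation. Of 30 stress and immediate early genes, 3 were higher in dendritic cells and 2 in macrophages (10.0% and 6.67%, against 4.05% and 6.36% of all). The 3 became 0 without dendritic cell array 2, and 1 without macrophage array 2 or after quantile normalisation. The 2 became 0 without dendritic cell array 1 or macrophage array 2, and 1 without either of the other arrays. Gadd45b, a stress-induced gene, gave 1656 and 1002 against 691 and 289 (1.52 ± 0.45, adjusted p = 0.0494), and its call was lost without macrophage array 2 (adjusted p = 0.33), dendritic cell array 1 (0.294) or dendritic cell array 2 (0.0561), and after quantile normalisation (0.0627).

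Most tested markers of other blood and stromal cells did not pass. Of 24 thymocyte genes, 2 were higher in macrophages by limma (8.33%, near the 6.36% of all tested genes) and 0 in dendritic cells. At an unadjusted p under 0.05, 9 and 0 were. The median was -1.21, -0.44 without macrophage array 1 and -2.03 without macrophage array 2. With macrophage array 1 as the only macrophage array, 10 were higher in macrophages. The 2 were Cd4 and Cd3e, and Cd3e, at 87.9 and 20.7 against 4.1 and 9.6, did not pass without that array (adjusted p = 0.345) or without either dendritic cell array (0.248 and 0.0778), nor with the sample number as a block over 8 arrays. Of 20 thymic epithelium genes, 7 were higher in macrophages, or 5 without macrophage array 1. Their median of -0.82 was -0.42 without macrophage array 1 and -1.3 without macrophage array 2. The defining epithelial genes Epcam and Foxn1 were near the bottom of the scale on all 4 arrays, at up to 23.6 and 13.5. Foxn1 was dim in epithelium too, at 42.2 and 33.7 in cTEC and 18.7 and 36.9 in mTEC. It read 10.3 and 13.5 in macrophages and 2.8 and 2.1 in dendritic cells. It did not pass (-1.2 ± 0.36, adjusted p = 0.0533), but did with a smaller added constant. Dsp, desmoplakin, was higher in macrophages on both arrays, at 293 and 169 against 9.5 and 13.6. The part of epithelial and thymocyte RNA in the macrophage results was not tested.

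B cell genes were higher in macrophages for 3 of 18 tested. Cd22 (204 and 360 against 19.9 and 22.8), Blnk (343 and 572 against 57.0 and 52.0) and Cd79b (178 and 201 against 64.3 and 36.7) passed, while Cd79a and Ms4a1 read 28.3, 20.5 and 28.5, 46.8 on the macrophage arrays and overlapped with dendritic cells. Cd79b did not pass without dendritic cell array 2 (adjusted p = 0.0932). The list sum was 2896 and 2021 in macrophages and 1347 and 1215 in dendritic cells. Of 8 NK and cytotoxic cell genes, Klrd1, the CD94 chain, was the 1 called, at 74.8 and 85.7 in dendritic cells and 6.9 and 1.4 in macrophages (3.32 ± 0.48).

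Among 25 fibroblast genes, 1 was higher in dendritic cells and 2 in macrophages. These shares of 4.0% and 8.0% were near the 4.05% and 6.36% of all tested genes. The first was S100a4, also a gene of leukocytes, at 632 and 338 against 35.3 and 10.0 (4.26 ± 0.48). The others were Postn, periostin, at 40.4 and 173 against 0.6 and 0.9 (-4.01 ± 0.51), and Mgp, which did not pass without macrophage array 1 (adjusted p = 0.147) or either dendritic cell array (0.0855 and 0.0797). The collagen genes Col1a1 and Col1a2 did not differ beyond their spread (-0.08 ± 0.48 and -0.13 ± 0.28). Vwf, a gene of endothelium and platelets, was higher in dendritic cells at 166 and 71.3 against 12.9 and 11.8, and its call was lost without dendritic cell array 1 (adjusted p = 0.0738). Granulocyte genes S100a8 and S100a9 stayed under 40 on all 4 arrays.

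Each set of genes was also placed among the 6 wild-type groups. Of the 280 genes higher in dendritic cells, 191 had their highest group mean in dendritic cells (68.2%), 46 in CD80hi mTEC, 26 in CD80lo mTEC, 14 in mTEC and 3 in cTEC. Of the 440 higher in macrophages, 228 had theirs in macrophages (51.8%), 89 in cTEC, 66 in CD80lo mTEC, 36 in CD80hi mTEC and 21 in mTEC. Over all 6922 tested genes, 19.6% had their highest mean in dendritic cells and 19.2% in macrophages. These shares use the arrays that made the calls and are a description. Several dendritic cell genes were bright in mTEC too. Irf4 gave 965 and 961 there, Fscn1 gave 894 and 1254, and Ccl5 gave 1564 and 1699.

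A comparison that shares no array with the myeloid one is that of wild-type CD80hi with CD80lo mTEC, the more and the less mature fraction of medullary epithelium. In all, 7.98% of the tested probe sets were higher in CD80hi and 4.74% were higher in CD80lo. Of the 338 probe sets higher in dendritic cells, 68 were higher in CD80hi (20.1%) and 17 in CD80lo (5.03%). Of the 524 higher in macrophages, 45 were higher in CD80hi (8.59%) and 90 in CD80lo (17.2%). Seen from the other side, the 68 are 9.14% of the 744 probe sets higher in CD80hi, and the 90 are 20.4% of the 442 higher in CD80lo. The median CD80hi minus CD80lo difference was 0.40 over the probe sets higher in dendritic cells, -0.17 over those higher in macrophages and -0.04 over all tested. The overlap was not tested, and both comparisons share the estimate of the spread.

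**Figure D5:**
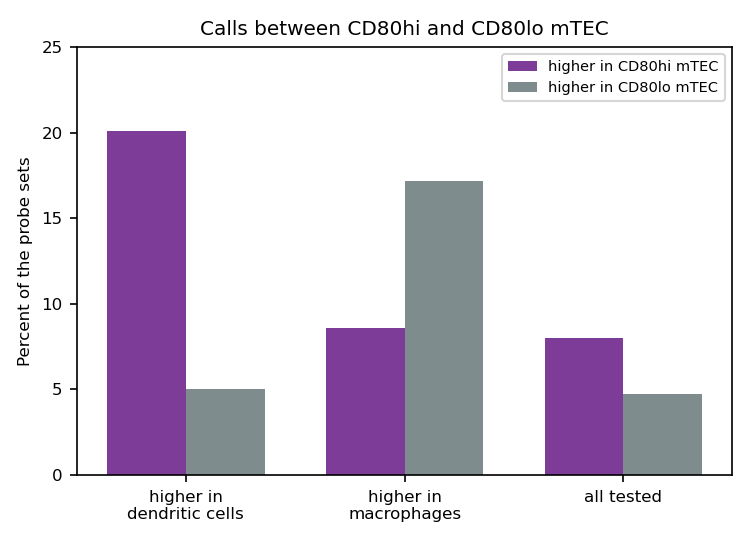
Percent of the 338 probe sets higher in dendritic cells, of the 524 higher in macrophages and of all 9319 tested that were higher in CD80hi or in CD80lo wild-type mTEC. The share higher in CD80hi was 20.1% for the dendritic cell set against 7.98% of all, and the share higher in CD80lo was 17.2% for the macrophage set against 4.74% of all.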

How the data were processed

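Total RNA of FACS-sorted mouse thymic cells was hybridised to Affymetrix arrays, per the labels. The deposited table gives 1 linear intensity per probe set and array, and each array's 2%-trimmed mean was 100.1. The top of the scale was not equal between sample numbers. The highest signal was 3523.8 and 4788 on the dendritic cell arrays and 2803.9 and 5004.7 on the macrophage arrays. The authors' software is not given in the sources used here, and no detection calls or depths were used. Values were taken as log2(intensity + 4.8), the 20th percentile. The 66 control probe sets and those not above 17.3, the 40th percentile, on at least 2 of 16 arrays were left out, which left 9319. Of 12422 probe sets, 10833 had 1 gene symbol, 396 several and 1193 none. The brightest probe set stood for a gene. limma 3.58.1 (R 4.3.3, package data.table, version 1.17.8) was fitted to all 16 arrays with a mean per group and an intensity trend in eBayes, which left 8 residual degrees of freedom and added 5.97 prior ones, and tests were 2-sided. The script was tested on simulated data.

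Samples were grouped by title. The genes named were the 12 largest called differences in each direction, up to 4 called members a direction and 2 others of each of 32 lists, Itgax, C1qb and the cell type markers. The members and lists were chosen with earlier results of these data known. Alternatives were quantile normalisation, other constants, filters and fits, the sample number as a block, and leaving out each array. Promoters were matched by symbol to RefSeq (GRCm38.p6), and chromosome 18 was not searched. Replicates correlated at 0.929 in dendritic cells and 0.896 in macrophages.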

Additional observations from a re-analysis of the deposited data

How the results depend on the processing

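The counts of probe sets higher in dendritic cells and in macrophages stayed within 1.5 times the reported 338 and 524 under quantile normalisation (347 and 434), both other constants, both other filters and no trend. With the spread taken from only the 4 arrays compared they were 76 and 104, and from only the 8 arrays not sorted by CD80 they were 211 and 311. Leaving out 1 array at a time gave 213 to 351 and 353 to 539, with the lone remaining array assumed to vary like the other groups; the lowest count of 213 was without dendritic cell array 1. Quantile normalisation moved the median difference of all probe sets from -0.08 to 0.03. Same-numbered arrays deviated together in all 6 pairs of the 4 groups not sorted by CD80 (r from 0.279 to 0.526 across probe sets, 0.526 for dendritic cells and macrophages), and the sample number as a replicate block gave 444 and 709 over 16 arrays and 460 and 645 over 8; the labels do not say what a number stands for, and the groups compared share only 2 numbers.

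Of the dendritic cell probe sets, the share higher in CD80hi was 31.6% with only the 4 arrays, 15.9% with the replicate block over 8 arrays and 18.2% to 23.5% with an array left out, and the share higher in CD80lo was 1.32% with only the 4 arrays and 3.92% to 6.55% with an array left out. Of the macrophage probe sets, the share higher in CD80hi was 13.5% with only the 4 arrays, 11.6% with the replicate block over 16 and 8.36% to 12.1% with an array left out, and the share higher in CD80lo was 15.0% to 21.2% with an array left out. The cause was not tested.

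Of 125 called genes among the 204 named, 90 kept the call without each array in turn, 118 under quantile normalisation, 121 with the replicate block over 8 arrays and 65 with only the 4 arrays, and 0 reversed. Since no called gene overlapped between the groups, leaving out an array or changing the constant or the spread could not reverse its sign. Of 1229 genes with several tested probe sets, 0 were called in opposite directions, and of the 128 called by the brightest, 39 were called by every one.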
